A study of Mus musculus with 10 samples.

Results

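Amino acid transporters of the SLC7 family and their SLC3 heavy chain were described in macrophages that had been sorted from tumours of the mouse mammary gland. A list of 8 genes was chosen by family membership, namely Slc3a2 and 7 SLC7 genes. Of these, 7 were read from the count tables and 1 is not analysed here, among 46956 loci with a gene symbol in all. All 7 had enough fragments to be tested, among 12500 loci tested in all.

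Most SLC7 proteins are light chains that reach the cell surface only when bound by a disulfide bridge to a heavy chain, and Slc3a2, also called CD98 heavy chain, is the heavy chain of the light chains described here. These heteromers are exchangers: they bring an amino acid into the cell against the release of another. The cationic amino acid transporters of the same family, such as Slc7a1 and Slc7a2, carry arginine, lysine and ornithine without a heavy chain. In macrophages the family is known for supplying arginine, the substrate of nitric oxide synthase, and cystine, the precursor of glutathione.

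The cells came from 4T1 tumours, a murine mammary carcinoma line implanted in the fat pad of Balb/cJ mice. The control group received vehicle (PBS) and the other group JHU083, a prodrug of the glutamine antagonist DON, at 1 mg/kg from day 7 to day 13. Tumours of both groups were taken at day 14. The gate kept live CD45+CD11b+F4/80+ cells and left out those positive for Ly6G, Ly6C or CD8. There were 5 samples a group, and all 10 shared the tumour line, strain and gate. The labels do not say that the samples came from separate mice, so p-values measure the spread between these samples, which may be technical. The ages of the mice were not stated in the labels.

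Each sample held between 11147723 and 15740488 fragments. Macrophage markers summed to 18992 to 24177 CPM, fragments scaled to the size of the library, in vehicle and 23888 to 31853 CPM in JHU083, and 4 of their 10 genes rose, 0 fell (1 without JHU083 replicate 1) and 6 were not called. Tumour epithelium markers were lower in every JHU083 sample, at a summed 104 to 220 CPM against 300 to 659 CPM in vehicle, with all 10 genes past the test and none of them at 0. Fibroblast and endothelium markers summed to 35.0 to 124 CPM in JHU083 and 115 to 235 CPM in vehicle, and 5 of 8 tested genes fell, or 2 to 3 without vehicle replicate 2 or 4 or JHU083 replicate 4 or 5. The T, NK and B cell list summed to 37.7 to 54.5 CPM in JHU083 and 27.5 to 30.5 CPM in vehicle. Of its 2 tested loci Cd4 rose from 14.7 to 31.8 CPM, while Klrb1c, whose locus also lists Klrb1b and Gm44511, was at 11.9 and 9.13 CPM and not called, and the other 9 genes held at most 15 fragments. The count lower on this list was 1 without vehicle replicate 3 or JHU083 replicate 5. The dendritic cell list summed to 13.6 to 28.0 CPM in JHU083 and 9.28 to 11.2 CPM in vehicle. Of its 5 tested loci Cd209a rose from 1.69 to 7.24 CPM, and the other 4, Flt3, Zbtb46, Clec9a and Ccr7, were not called. The count higher on this list was 2 without vehicle replicate 3 or JHU083 replicate 2 or 5. These genes were named after their values were seen. The summed neutrophil markers overlapped between the groups, at 98.6 to 151 CPM in JHU083 and 98.5 to 111 CPM in vehicle. Of 6 tested genes 1 was higher (2 without JHU083 replicate 1) and 2 were lower (4 without JHU083 replicate 3). Csf3r, the higher gene, rose from 58.4 to 84.5 CPM, while S100a8 fell from 7.32 to 2.78 CPM and S100a9 from 16.2 to 3.61 CPM. They too were named after their values were seen. The summed eosinophil markers overlapped as well, with 1 higher of 3. Mitochondrial genes held 2.14% to 2.44% of the fragments in JHU083 and 1.53% to 2.09% in vehicle. In limma's sample quality weights, JHU083 replicate 3 had the lowest weight, 0.29. Vehicle replicates 2, 4 and 5 and JHU083 replicates 1 and 3 list 0 for both Gm42418 and Rn18s-rs5, loci that held 2.87% to 5.59% of the fragments in the other samples.

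With JHU083, 2296 loci were higher and 2293 were lower than in vehicle, past an adjusted p of 0.05 in edgeR's quasi-likelihood test with Benjamini-Hochberg adjustment, which is 36.7% of the loci tested (18.4% higher and 18.3% lower). Counts of called genes on the marker lists above and the gene lists below are to be read against these shares. With scaling to library size alone the split was 1564 higher and 3141 lower. The median log2 fold change over all tested loci was 0.01 and the lower and upper quartiles were −0.25 and 0.27. Among the 7 transporters 1 fell, 0 rose and 6 were not called, so 14.3% were called. Before adjustment 2 of 7, Slc7a1 and Slc3a2, had p under 0.05. The median log2 fold change of the 7 was 0.03, with 4 values above and 3 below 0. In none of the 7 did the CPM of the groups separate, where 22.3% of all tested loci had groups that did not overlap. In bulk samples fewer cells of a type and less RNA per cell cannot be told apart.

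**Figure D1:**
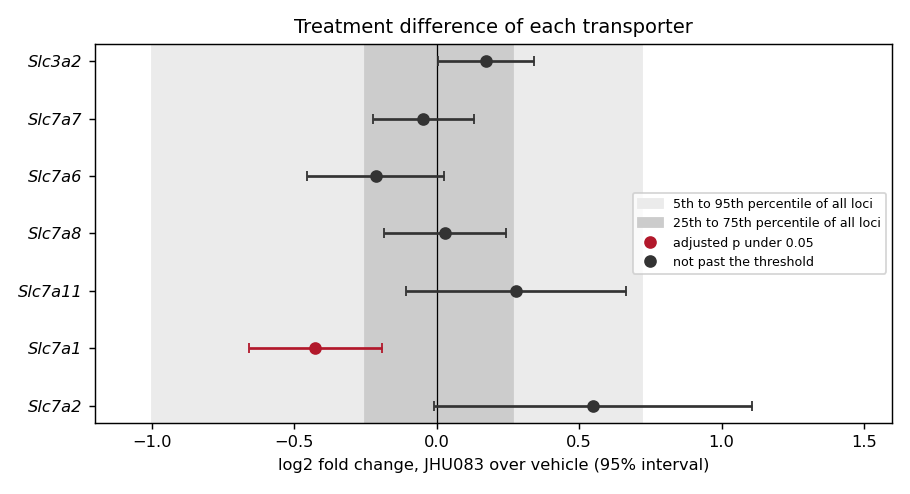
Log2 fold change of JHU083 over vehicle for each transporter, with its 95% confidence interval, on the horizontal axis. Slc7a1 lies wholly below 0, at −0.43, and Slc7a2 has the widest interval, from −0.0095 to 1.11.

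In FPKM, the deposited level per length of transcript and per size of library, which allows genes to be compared, the heavy chain was the most abundant member. Slc3a2 stood at 320 ± 21.7 FPKM in vehicle and 360 ± 29.8 in JHU083 (mean ± SD, n = 5). It was followed by Slc7a7 (58.0 ± 6.04 and 55.6 ± 9.24) and Slc7a8 (27.0 ± 2.22 and 27.7 ± 4.17). In both groups the FPKM ranges of these 3 genes and of the genes below them did not overlap. The other 4 stood lower, with Slc7a2 at 9.35 ± 2.82 in vehicle and 14.2 ± 6.62 in JHU083, Slc7a11 at 6.85 ± 0.95 and 8.31 ± 2.40, Slc7a1 at 5.62 ± 0.66 and 4.19 ± 0.57, and Slc7a6 at 4.78 ± 1.03 and 6.24 ± 2.39. Neighbours among these 4 overlapped in both groups, so their order is not settled by the spread. The order of the last 2 differed between the groups, with Slc7a6 above Slc7a1 only in JHU083. The FPKM of Slc3a2 was 3.33 ± 0.27 times the summed FPKM of its 4 measured light chains in vehicle (range 2.96 to 3.66) and 3.72 ± 0.58 times in JHU083 (range 2.90 to 4.43), and these ranges overlap. This multiple depends on the length behind each FPKM and was not computed with the exon-union lengths described below.

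**Figure D2:**
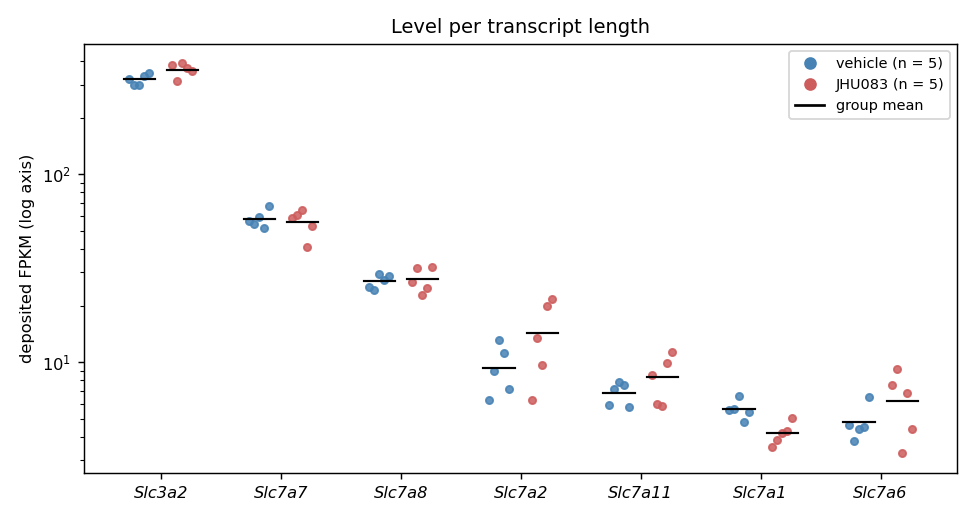
Deposited FPKM of the 7 transporters in the 10 samples on a log axis, a point per sample, by group. Slc3a2 stands above 298 FPKM in every sample and the 4 lowest genes overlap each other.

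The direction for Slc7a6 differed between the 2 scales. Its mean CPM was lower in JHU083 while its mean FPKM was higher. The length implied by the ratio of unscaled CPM to FPKM was 1.66, 1.76 and 1.77 kb in JHU083 replicates 1, 2 and 4 and 2.76 to 3.96 kb in the other 7 samples. Its highest and lowest implied lengths differed 2.38-fold, against 1.12-fold to 1.27-fold for the other 6 transporters. Levels computed instead over the union of GENCODE exons, an alternative chosen after seeing the data, put Slc7a6 at 3.57 in vehicle and 2.92 in JHU083, the direction of its CPM. On that scale Slc3a2 stood at 162 and 172, Slc7a7 at 30.9 and 28.4, and Slc7a8 at 23.0 and 22.3. Slc7a7 and Slc7a8 then overlapped in JHU083, at 24.2 to 30.4 and 17.8 to 26.2, and did not in vehicle. The order of the lower genes in vehicle became Slc7a2, Slc7a1, Slc7a6 and Slc7a11, with the range of Slc7a2 just above those of the other 3. For Slc3a2 the implied length was 1.66 to 1.86 kb, against 3529 bases in the exon union.

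The heavy chain Slc3a2 (chr19:8706882-8723369, minus strand, GRCm38, as for all coordinates below) was at 559, 516, 521, 579 and 603 CPM in the 5 vehicle samples. In JHU083 it was at 658, 535, 683, 641 and 615 CPM. Replicate 2 of JHU083 sat inside the vehicle range, and the other 4 lay above the highest vehicle sample. The log2 fold change was 0.17 ± 0.08 (SE), with a 95% interval of 0.0042 to 0.34 and an adjusted p of 0.0991, so Slc3a2 was not called. Without JHU083 replicate 2 the value was 0.23 with an adjusted p of 0.0249.

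Slc7a7, the light chain of the system that takes up neutral amino acids with sodium in exchange for cationic ones, was at 103, 90.7, 96.6, 97.8 and 112 CPM in vehicle (chr14:54369442-54417780, minus strand). In JHU083 it was at 101, 101, 106, 83.7 and 91.8 CPM. The groups overlapped almost completely, with JHU083 replicate 4 the lowest of the 10 samples. Its log2 fold change was −0.05 ± 0.08 (−0.23 to 0.13, adjusted p 0.685). A stretch of 232 bases of this gene overlaps Oxa1l on the opposite strand, and whether the counting used strand is not given in the sources used here.

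Slc7a6, a light chain of the same transport system, was the lowest member by count, at 166 to 258 fragments. It was at 17.5, 13.9, 15.4, 14.6 and 18.1 CPM in vehicle and at 12.7, 16.1, 12.5, 12.7 and 14.6 CPM in JHU083 (chr8:106168857-106198706, plus strand). In JHU083 3 samples lay below the lowest vehicle sample and 2 inside the vehicle range. The log2 fold change of −0.21 ± 0.11 (−0.45 to 0.03) had an adjusted p of 0.148.

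Slc7a8, the light chain of a transporter of large and small neutral amino acids, was at 105, 101, 122, 115 and 119 CPM in vehicle (chr14:54722209-54781946, minus strand). In JHU083 it was at 111, 131, 94.8, 103 and 133 CPM. JHU083 samples lay both above and below the vehicle range, and the log2 fold change was 0.03 ± 0.10 (−0.18 to 0.24, adjusted p 0.843).

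Slc7a11, the light chain that exchanges extracellular cystine for glutamate, is a textbook target of the amino acid response through ATF4 and of the oxidative stress response through NRF2. Its promoter is shown because those regulators were measured here. The sequence is the 250 bases before the start site in RefSeq (GRCm38.p6, chr3:50443614-50443863, minus strand), and capitals mark matches to the amino acid response element searched as TGATGNAA on either strand.

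Slc7a11: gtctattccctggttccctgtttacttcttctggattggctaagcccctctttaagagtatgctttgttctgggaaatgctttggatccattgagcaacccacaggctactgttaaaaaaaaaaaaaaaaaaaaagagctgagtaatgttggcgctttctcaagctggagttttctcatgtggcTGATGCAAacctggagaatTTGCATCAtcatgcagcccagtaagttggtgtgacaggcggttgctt

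Here 2 matches stood 66 and 47 bases before the start, on opposite strands. Of all 32851 RefSeq promoter windows of the same length, 3.45% held TGATGNAA. The letters of the antioxidant response element, TGACNNNGC, were not in this window. Slc7a11 transcript (chr3:49892526-50443614, minus strand) was at 40.5, 45.7, 50.4, 49.4 and 35.1 CPM in vehicle. In JHU083 it was at 56.7, 34.1, 40.0, 65.4 and 72.0 CPM. Replicates 1, 4 and 5 of JHU083 lay above every vehicle sample, replicate 2 lay below every vehicle sample, and replicate 3 was inside the range. The log2 fold change was 0.28 ± 0.18 (−0.11 to 0.67, adjusted p 0.239), and the coefficient of variation was 30.3% in JHU083 against 14.5% in vehicle. In fits without a sample the log2 fold change ran from 0.15 (without JHU083 replicate 5) to 0.41 (without JHU083 replicate 2).

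**Figure D3:**
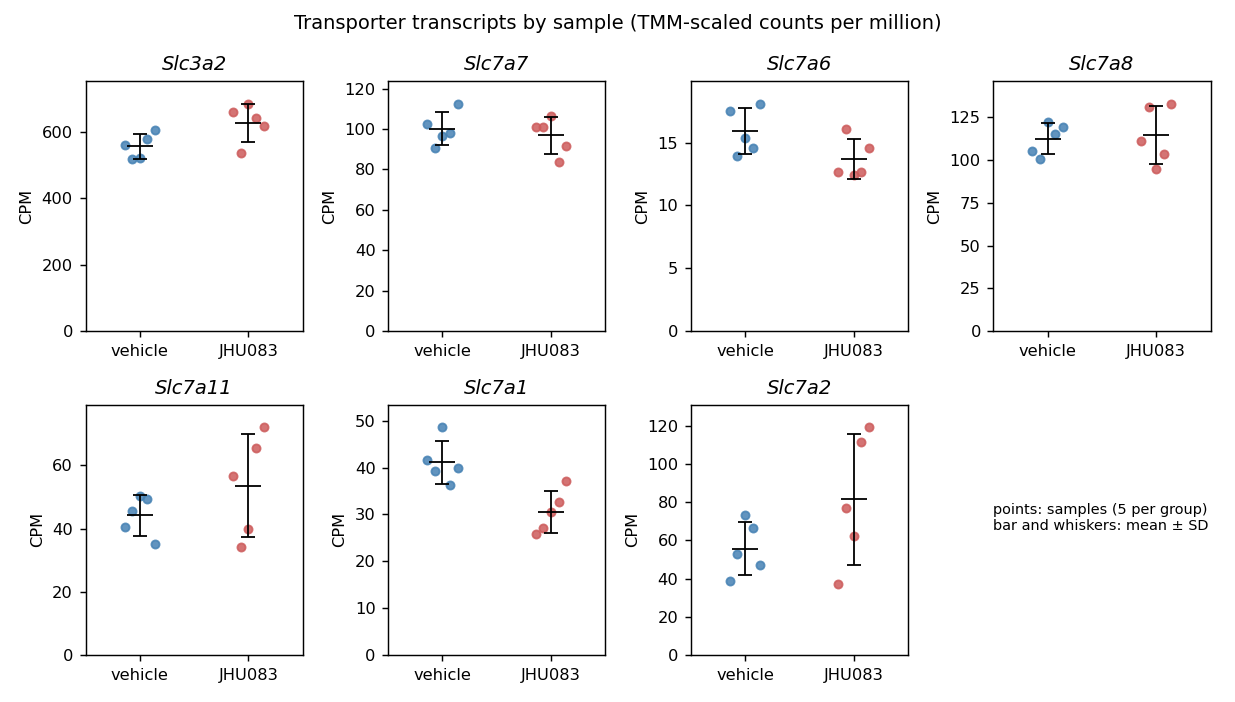
CPM of each transporter in each sample, with the group mean and SD, 5 samples per group, each panel starting at 0. The groups overlap in all 7 panels, and Slc7a1 is the gene past the test, with 4 of 5 JHU083 samples below the lowest vehicle sample.

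Slc7a1, the widely expressed high-affinity carrier of arginine, lysine and ornithine, was the called member. It was at 41.6, 39.3, 48.6, 36.2 and 39.9 CPM in vehicle and at 25.9, 27.0, 30.6, 32.6 and 37.1 CPM in JHU083 (chr5:148327410-148399904, minus strand). Replicate 5 of JHU083 overlapped the vehicle range, just above vehicle replicate 4, and the other 4 lay below it. Mean level fell by 25.6% (95% interval −36.7% to −12.5%), from 41.1 ± 4.59 to 30.6 ± 4.49 CPM, a log2 fold change of −0.43 ± 0.11 (−0.66 to −0.19, adjusted p 0.00772). This change lies at percentile 14.9 of all tested loci, so loci with larger decreases were common. The summed tumour epithelium markers were also lower in every JHU083 sample, and their part in the Slc7a1 result was not tested. In the 5 samples listing Rn18s-rs5 and Gm42418 at 0 the log2 fold change was −0.44 (adjusted p 0.0796), and in the other 5 it was −0.49 (adjusted p 0.0376).

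The promoter of Slc7a1 is shown as that of the member past the test. It is the window of 250 bases before the start of RefSeq transcripts at chr5:148399905-148400154 (GRCm38.p6, minus strand), and capitals mark the antioxidant response element, searched as TGACNNNGC on either strand.

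Slc7a1: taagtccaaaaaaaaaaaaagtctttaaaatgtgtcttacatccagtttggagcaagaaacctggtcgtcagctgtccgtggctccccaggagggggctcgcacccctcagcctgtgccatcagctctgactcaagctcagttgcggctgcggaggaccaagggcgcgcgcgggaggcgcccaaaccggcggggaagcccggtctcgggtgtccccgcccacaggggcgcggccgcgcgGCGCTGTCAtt

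The match lay 11 bases before the start, on the minus strand relative to the transcript, and 10.2% of all windows held this motif. The other RefSeq window of Slc7a1 (chr5:148392816-148393065) held none of the 3 motifs searched. The letters of a CACGTG E-box were in none of the 12 windows of the 6 transporters with a promoter entry, against 6.02% of all windows. Slc7a6 had 1 antioxidant element, 68 bases before its start, and Slc7a7 had amino acid response elements at 141 and 243 bases in 2 of its 5 windows. These matches describe letters and were not tested as sites.

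By likeness of sample-to-sample pattern, the loci nearest to Slc7a1 were Ckap4 (r = 0.91), Ahcyl2 (r = 0.89) and Asns (r = 0.89). The measure was Pearson's r of log2 CPM minus the group mean over 10 samples, searched over 10125 loci, so high values were picked from many. None of these 3 was called between the groups, with log2 fold changes of −0.27, −0.03 and 0.27.

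Slc7a2, a cationic amino acid transporter known for expression in activated macrophages, varied most within its groups. It was at 38.8, 52.7, 73.5, 66.4 and 47.4 CPM in vehicle (chr8:40862396-40922308, plus strand). In JHU083 it was at 37.0, 77.1, 62.6, 112 and 119 CPM. Replicates 2, 4 and 5 of JHU083 lay above every vehicle sample and replicate 1 lay below every vehicle sample. The log2 fold change was 0.55 ± 0.26 (−0.0095 to 1.11) and not called (adjusted p 0.112), with coefficients of variation of 25.2% in vehicle and 42.0% in JHU083. Without JHU083 replicate 1 the value was 0.73 (adjusted p 0.0162). The JHU083 replicates listing Rn18s-rs5 and Gm42418 at 0 were 1 and 3, and in the samples at 0 the log2 fold change was −0.15 (adjusted p 0.726) against 0.86 (adjusted p 0.0289) in the others. The difference between these sets, as an interaction term added after seeing the data, was −1.03 with an unadjusted p of 0.0241 and an adjusted p of 0.964, and 0 of all loci were called for it (356 had an unadjusted p under 0.05).

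The balance between members was compared as log2 ratios of CPM within a sample, for 6 ratios, each with a two-sided exact permutation test over samples. With 5 against 5 samples the smallest p is 0.0079, and none of the 6 passed after Benjamini-Hochberg adjustment. The ratio of the 2 arginine carriers, Slc7a1 to Slc7a2, was −0.41 ± 0.37 in vehicle and −1.30 ± 0.53 in JHU083 (SD, n = 5), a difference of −0.89 with an exact permutation p of 0.0238 (adjusted 0.0952). In this ratio 4 of 5 JHU083 samples lay below every vehicle sample. Slc7a6 and Slc7a7 against Slc3a2 differed by −0.38 and −0.22, each with an exact permutation p of 0.0476 (adjusted 0.0952), and in each 4 of 5 JHU083 samples lay below every vehicle sample. The remaining sample, JHU083 replicate 2, lay inside the vehicle range for Slc7a6 and above every vehicle sample for Slc7a7. The other light chains against Slc3a2 differed by −0.15 for Slc7a8 (exact permutation p 0.365) and 0.06 for Slc7a11 (0.770). Slc7a6 against Slc7a7 differed by −0.16 (0.159). Computed from FPKM, both differences that involve Slc7a6 turned direction, to 0.14 against Slc3a2 and 0.38 against Slc7a7.

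**Figure D4:**
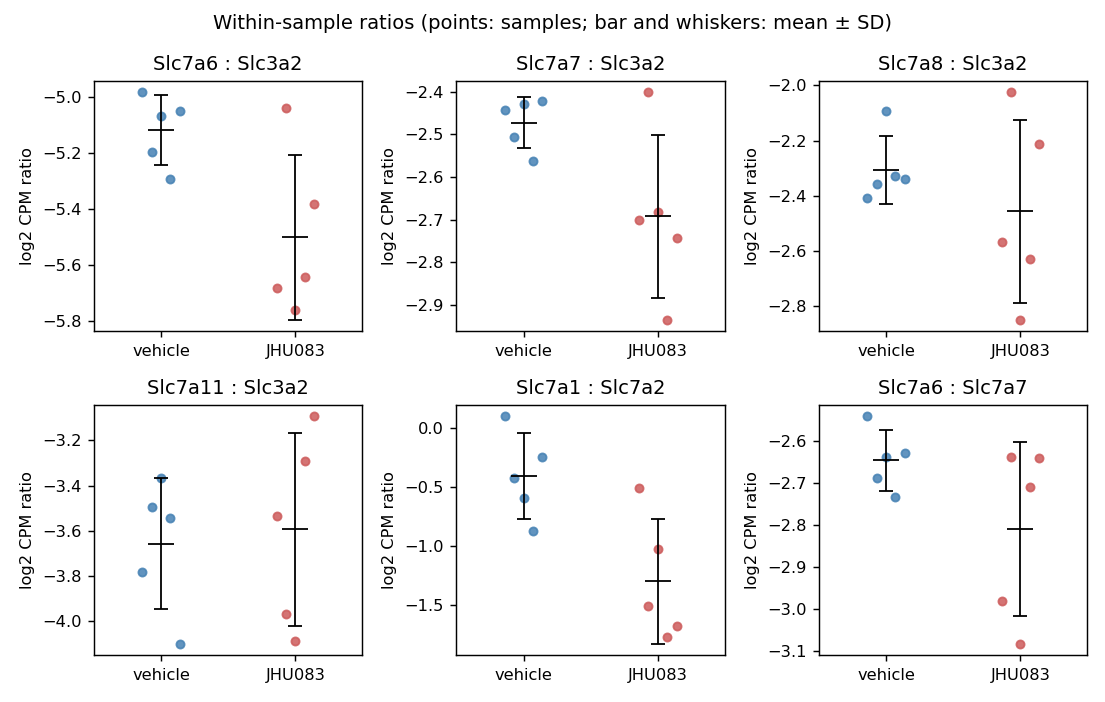
Log2 ratios of CPM between transporters in each sample, with group means and SD, 5 samples per group. For Slc7a1 to Slc7a2 the JHU083 mean is −1.30 and the vehicle mean −0.41, and the groups overlap in JHU083 replicate 1.

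The 9 other SLC7 and SLC3 genes with a row were at or under 6 fragments except Slc7a4, which was tested and not called (log2 fold change 0.10, adjusted p 0.690). Among carriers outside the family, sodium-coupled transporters had 5 of 20 tested, of which 1 rose, 1 fell and 3 were not called, with a median of −0.15. This and the carrier counts below are to be read against 18.4% of all tested loci higher and 18.3% lower. Slc1a5, an exchanger for glutamine and other neutral amino acids, fell from 86.9 ± 8.43 to 59.7 ± 7.58 CPM (log2 −0.54, adjusted p 0.000747). Slc6a6, the taurine carrier, rose from 223 to 300 CPM (0.42, adjusted p 0.0022). The glutamine carriers Slc38a1 and Slc38a2 stood at −0.15 and 0.13 and were not called.

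Uniporters and proton-coupled carriers had 6 of 8 tested, of which 5 rose and 1 fell, with a median of 0.44 against 0.01 over all loci. The aromatic amino acid uniporter Slc16a10 rose from 23.8 ± 2.45 to 33.0 ± 5.60 CPM (adjusted p 0.00643). Slc43a2, a uniporter of large neutral amino acids, rose from 164 to 195 CPM (0.25, adjusted p 0.0169), and Slc36a1, a proton-coupled carrier at lysosomes, from 52.9 to 77.3 CPM. Slc43a3, on this list by family name rather than as an established amino acid carrier, fell from 15.1 to 9.84 CPM (−0.62). Slc36a2 was at 0.22 CPM in vehicle and 1.46 CPM in JHU083 from 1 to 28 fragments a sample, a log2 value of 2.71 that rests on few fragments. In the 5 samples listing Rn18s-rs5 and Gm42418 at 0, 0 of the 5 uniporter and proton-coupled genes that rose were called.

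**Figure D5:**
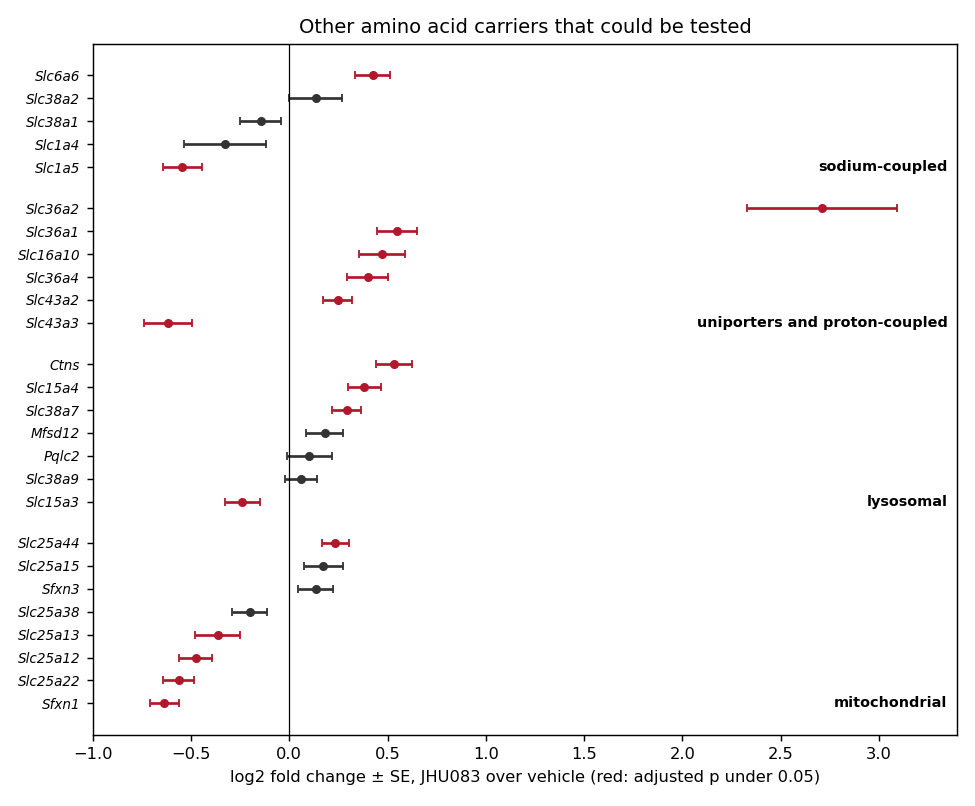
Log2 fold change ± SE of JHU083 over vehicle for the other listed carriers that could be tested, in 4 groups, red where the adjusted p was under 0.05. The uniporters and proton-coupled carriers lie above 0 apart from Slc43a3, which was listed by family name. Of 8 mitochondrial carriers 4 lie below 0 and are called.

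Lysosomal carriers had 3 of 7 tested genes higher and 1 lower, with a median of 0.18. The lower gene was Slc15a3, a peptide and histidine carrier named after its value was seen, at 493 CPM in vehicle and 418 CPM in JHU083 (adjusted p 0.0472). It was not called in 8 of the 10 fits without a sample, the exceptions being those without JHU083 replicate 1 or 3. Ctns, the lysosomal cystine exporter, rose from 41.0 to 59.3 CPM (0.53, adjusted p 0.000527), and Slc15a4 and Slc38a7 rose by 0.38 and 0.29. Mitochondrial carriers had 1 of 8 tested genes higher and 4 lower, with a median of −0.28. Sfxn1, the mitochondrial serine carrier, fell from 61.0 to 39.3 CPM (−0.63, adjusted p 2.1e-05), and the glutamate carriers Slc25a22 and Slc25a12 fell by 0.56 and 0.48 on the log2 scale.

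Genes that use the transported amino acids were taken as lists, to be read against 18.4% of all tested loci higher and 18.3% lower. For cysteine and glutathione, 3 of 13 tested genes rose, 0 fell and 10 were not called, with a median of 0.01. The glutamate-cysteine ligase subunits Gclc and Gclm rose by 0.35 and 0.41 on the log2 scale, and Mat2a, which makes S-adenosylmethionine, by 0.20. The count of 3 was 1 without vehicle replicate 1 or 4 or JHU083 replicate 5, and it ran from 0 to 3 over all alternatives. The count lower was 1 without JHU083 replicate 3 or 4. Without a sample, Mat2a lost its call in 6 of 10 fits and Gclm in 4 of 10. The locus of Gclm also lists Gm6061. Among arginine and ornithine users 2 of 10 rose and 4 fell (median −0.19). The 2 that rose, named after their values were seen, were Arg2 (99.9 to 154 CPM) and Gatm (1219 to 1632 CPM). Nos2, inducible nitric oxide synthase, fell from 36.7 to 11.4 CPM (−1.68, adjusted p 6.3e-06), Ass1, which remakes arginine from citrulline, from 34.4 to 17.8 CPM, and the spermidine synthase Srm from 70.6 to 38.4 CPM. Branched-chain and aromatic amino acid users had 1 of 8 higher and 4 lower (median −0.23), with Kynu 0.42 higher and Bckdk and Bckdhb 0.42 and 0.32 lower on the log2 scale. The count lower was 2 without vehicle replicate 1 or 5 or JHU083 replicate 5, where Bckdhb was not called, and the count higher was 2 without vehicle replicate 3 or JHU083 replicate 1 or 3. A further gene among the 4, Il4i1, shares its locus with Nup62.

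For amino acid sensing by mTORC1, 7 of 31 tested genes rose, 3 fell and 21 were not called (median 0.02). These shares, and those of the regulators and ATF4 targets below, are to be read against 18.4% of all loci higher and 18.3% lower. The count lower was 0 without JHU083 replicate 5, 1 without vehicle replicate 1, 4 or 5 or JHU083 replicate 2, and 6 without JHU083 replicate 3. Rragd, a Rag GTPase, rose from 2.99 to 7.84 CPM (1.39), Fnip1 rose by 0.66 and Sesn3 fell by 0.66 on the log2 scale, while Mtor was not called (−0.07, adjusted p 0.577). Sesn3 was not called without vehicle replicate 2 or 3 or JHU083 replicate 5. Known regulators of these transporters had 8 of 14 tested higher and 3 lower (median 0.28). Atf4 rose from 252 to 309 CPM (0.29, adjusted p 0.0109), Nfe2l2, which encodes NRF2, from 221 to 277 CPM (0.33, adjusted p 0.00551), and its repressor counterpart Bach1 from 137 to 200 CPM. Epas1 rose by 0.74 and Mitf by 0.72, and Myc fell from 50.4 to 27.3 CPM (−0.88, adjusted p 0.000256). Among other amino acid response targets of ATF4, 3 of 13 rose, 6 fell and 4 were not called (median −0.24). Those that fell included Psat1 (56.1 to 25.3 CPM) and Phgdh, enzymes of serine synthesis, and Ddit4. The 3 that rose, named after their values were seen, were Nupr1, Atf5 and Ppp1r15a, by 0.50, 0.46 and 0.35 on the log2 scale. All of these changes stand beside a lower summed level of tumour epithelium markers and a higher share of mitochondrial fragments in JHU083, whose part in them was not tested. A further count covers the 34 called genes named from these lists by the fixed rule. Of these, 22 were not called within the 5 samples listing Rn18s-rs5 and Gm42418 at 0, and 10 were not called within the other 5. None changed direction in either set.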

How the data were processed

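Sequencing was of poly(A) RNA libraries from 10 samples, 5 vehicle and 5 JHU083. Per the submitters' processing notes, bcl2fastq 2.17.1.14, FastQC 0.11.2, TopHat2 2.1.1 and the build GRCm38 were used; the counting program and annotation are not given in the sources used here. The deposited tables hold raw counts and FPKM, per the file headers. The deposited raw counts are not whole numbers and were treated as estimated counts. Within each sample the deposited estimated counts were whole multiples of a step of 0.888 to 1.17, and for 99.7% to 99.9% of positive values the recovered fragment was whole within 0.01. These fragments were the values tested. A locus without a symbol was left out, and it held at most 297 fragments.

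Loci were filtered with filterByExpr, scaled by TMM and tested with edgeR 4.0.16 (quasi-likelihood) in R 4.3.3, and p-values were adjusted over all 12500 loci at 0.05. CPM are TMM-scaled. Exact permutation tests used Python 3.11.15. Named genes are the transporters, up to 3 called genes of largest absolute fold change from each list, and genes fixed with the lists, such as Slc1a5, Atf4, Nfe2l2 and Mtor, of which 1 is not reported here; nearest patterns were taken for the called member. Genes marked above as named after their values were seen are outside this rule. The members and lists were chosen with earlier results of these data known. Alternatives were DESeq2 1.42.0, limma 3.58.1 voom with quality weights, other scalings and filters, the deposited counts rounded, leaving out Rn18s-rs5 and Gm42418 or each sample, a covariate and a replicate block. The within-set fits, the interaction and the exon-union levels were added after seeing the data. Genes were placed with GENCODE M21 and promoters come from RefSeq. Of 8 planned ratios 2 need the transporter that is not analysed here and were not made. The code was tested on simulated data.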

Additional observations from a re-analysis of the deposited data

Results flagged for a closer look

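In 26 groups of 5 samples examined for a sample far from the others, 1 was picked out; chance would pick about 1 in 20 groups. The log2 ratio of Slc7a8 to Slc3a2 in vehicle replicate 3 was −2.09, while the other 4 vehicle samples lay between −2.41 and −2.33. Its gap to the nearest sample was 0.748 of the whole range, above the critical value of 0.71.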

How the results depend on the processing

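Slc7a1 kept its direction in all 22 alternative fits and its call in 21 of them. It was called in each of the 10 fits without a sample (−0.50 to −0.36, adjusted p 0.0034 to 0.0215), and at −0.44 with an adjusted p of 0.0796 it was not called in the samples listing Rn18s-rs5 and Gm42418 at 0, where 0 members were lower; that fit has fewer samples. In that set 532 loci were higher and 586 lower, and 1276 were higher in the other samples. Scaling to library size alone gave 1564 higher and 3141 lower loci. The count of members higher was 1 with no filter on low counts (Slc7a2, adjusted p 0.00607) and 1 in the other samples, and 0 to 1 over the fits without a sample, being Slc7a2 without JHU083 replicate 1 and Slc3a2 without JHU083 replicate 2. Of the 6 uncalled members Slc3a2, Slc7a6 and Slc7a11 kept the sign of their log2 fold change in all 22 alternatives, and the other 3 did not: Slc7a2 was −0.15 in the samples at 0, Slc7a7 0.052 there and −0.084 to 0.0020 without a sample, Slc7a8 −0.11 there, −0.048 with library size only, −0.0037 with the covariate and −0.027 to 0.092 without a sample. Mtor was 0.081 in the other samples and −0.12 to 0.0045 without a sample. From FPKM, the difference between groups (JHU083 minus vehicle) in the log2 ratio of Slc7a6 to Slc3a2 was 0.14 and in that of Slc7a6 to Slc7a7 0.38. Without a sample, the difference for Slc7a11 to Slc3a2 ran from −0.063 to 0.19, Slc7a6 to Slc3a2 from −0.50 to −0.32 and Slc7a7 to Slc3a2 from −0.29 to −0.16, the last 2 with an adjusted p of 0.0476 without JHU083 replicate 2. Likewise Slc7a8 to Slc3a2 ran from −0.26 to −0.053, Slc7a6 to Slc7a7 from −0.21 to −0.096 and Slc7a1 to Slc7a2 from −1.09 to −0.77. For the 38 genes named from the lists by the fixed rule, 775 of 836 comparisons kept direction and call. Calls were lost by Mat2a in 11 of 22 alternatives, Gclm in 8, Bckdhb in 6, Slc43a2 in 5 and Sesn3 in 4. With a replicate block 5 of the 34 called genes among them lost their call. The cause of these changes was not tested.

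The replicate numbers did not pair the samples: correlations of same-numbered samples' deviations were −0.198, 0.091, −0.569, −0.124 and −0.164. With a replicate block 1612 loci were higher and 1757 lower, and Slc7a1 was −0.43 with an adjusted p of 0.0228. For ratios over 5 pairs the smallest sign-flip p is 0.0625.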
